A study of Mus musculus with 46 samples.

Results

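XX gonads of mouse embryos with 2 different homozygous deletion genotypes at Enh13 were compared: 5 XX libraries labelled Enh13-3bp-12bp-del-hom against 5 XX libraries labelled Enh13-3bp-del-hom, 10 of the 46 libraries of the series. They were taken by title, and all 10 are poly(A)-selected RNA libraries of whole gonads at E12.5. Both groups are homozygous mutants, so neither is an unmutated control. The same genotypes in XY gonads (3bp-12bp-del-hom, n = 3, and 3bp-del-hom, n = 5) and wild-type XX (n = 3) and XY gonads (n = 3) serve as comparisons below. The labels leave the make-up of the 3bp-12bp-del genotype unexplained (both deletions on 1 chromosome, or 1 on each), and they name no strain, litter or batch. Nothing in them says that the replicates are separate embryos, so each p-value measures the spread between these samples, which may be technical in part.

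Enh13 is a remote enhancer of Sox9, the transcription factor that directs the supporting cells of the early gonad to become Sertoli cells, the nurse cells of the testis. In XY gonads SRY acts through this enhancer. In XX gonads the supporting cells normally become pregranulosa cells under WNT4, RSPO1 and beta-catenin signalling and the factor FOXL2, and each programme holds the other down. Sertoli cells secrete AMH and Desert hedgehog and make CYP26B1, an enzyme that breaks down retinoic acid.

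Among the genes listed for these opposed programmes, Cyp26b1, Foxl2 and Sp5 were the 3 that were called with and without a correction for gene length and whose libraries did not overlap between the genotypes, and their promoters are shown for that reason. The sequences are those of RefSeq on GRCm38.p6, 250 bases before to 50 bases after each start of transcription, written 5' to 3' on the gene's strand. They lie at chr9:98955357-98955656 on the plus strand for Foxl2, at chr2:70474673-70474972 on the plus strand for Sp5 and at chr6:84593761-84594060 on the minus strand for Cyp26b1. Capitals mark CTTTGA, the core of the motif bound by the TCF partners of beta-catenin. Sox9 itself is named without a promoter sequence.
Foxl2: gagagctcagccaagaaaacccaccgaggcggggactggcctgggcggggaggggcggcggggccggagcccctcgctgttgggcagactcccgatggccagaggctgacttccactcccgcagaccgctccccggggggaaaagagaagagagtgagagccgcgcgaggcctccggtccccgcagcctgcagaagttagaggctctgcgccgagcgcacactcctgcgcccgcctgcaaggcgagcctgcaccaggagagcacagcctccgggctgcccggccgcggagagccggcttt
Sp5: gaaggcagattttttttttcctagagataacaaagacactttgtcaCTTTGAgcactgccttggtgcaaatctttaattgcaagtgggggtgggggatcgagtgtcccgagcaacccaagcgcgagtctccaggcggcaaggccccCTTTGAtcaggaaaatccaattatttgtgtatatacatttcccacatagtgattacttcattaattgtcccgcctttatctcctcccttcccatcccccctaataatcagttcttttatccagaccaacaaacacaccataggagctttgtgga
Cyp26b1: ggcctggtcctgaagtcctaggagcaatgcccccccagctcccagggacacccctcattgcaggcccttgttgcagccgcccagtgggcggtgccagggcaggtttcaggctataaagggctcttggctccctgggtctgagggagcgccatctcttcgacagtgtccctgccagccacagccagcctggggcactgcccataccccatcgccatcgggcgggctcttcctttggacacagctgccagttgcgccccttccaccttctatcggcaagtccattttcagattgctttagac
Both strands were searched for CTTTGA and for AACAAT, a core of the motif bound by SOX factors, and no matches overlapped. The Sp5 promoter holds CTTTGA at 2 places on the gene's strand, the first bases of which lie 204 and 104 bases before the start. The Foxl2 and Cyp26b1 windows hold neither set of letters. Among all 32851 RefSeq promoters of the same length, 16% hold CTTTGA and 10.7% hold AACAAT, so such a match is a description of the letters and not a binding site.

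The 10 libraries held 33073297 to 44144757 estimated counts each, and mitochondrial genes took 1.81 to 3.49% of them. Total counts (exact permutation test, two-sided p = 0.238) and the mitochondrial share (exact permutation p = 0.167), both 0.317 after adjustment, were not shown to differ between the genotypes by tests over libraries. Levels are given as CPM, counts scaled to the size of the library. Xist, which silences 1 X chromosome in XX cells, stood at 51.5 CPM or more in each of the 10 libraries and at 0.192 CPM or less in the wild-type and mutant XY libraries used here. Sox9 stood at 150 CPM or more in all 10, against 7.78 to 12 CPM in wild-type XX gonads. Replicate 4 of the 3bp-del group carried more nephric-duct RNA than the other 9 libraries: the kidney cadherin gene Cdh16 stood at 41.3 CPM there and at 0.0295 to 4.07 CPM elsewhere. The summed level of the mesonephros list was 191 to 301 CPM in the 3bp-del libraries, highest in that replicate, and 146 to 236 CPM in the 3bp-12bp-del libraries. Among the wild-type XY libraries that sum was 344 CPM in replicate 3, against 92.7 and 116 CPM in replicates 1 and 2. The summed Sertoli list stood at 1350 CPM in that wild-type replicate, against 3010 and 2730 CPM. The wild-type XY means below include this library, and its part in them was not tested.

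A few supporting-cell genes differed between the genotypes in the direction of the testis, each by less than 2-fold, while Sox9 was not called. Cyp26b1 rose, and Foxl2, Sp5 and Msx2 fell, in the 3bp-12bp-del gonads. Differences also lay outside the sex programme: laminin and other basement membrane genes, endothelial receptors and Notch receptors were higher, and ribosomal protein genes, oxidative phosphorylation genes and some germ cell genes were lower. Many of these differences follow the length of the gene, and each is therefore given as fitted and after removal of the trend with length.

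Of 15605 genes tested, 4360 (27.9%) were called at an adjusted p under 0.05, 2327 higher (14.9%) and 2033 lower (13%) in the 3bp-12bp-del group. Most calls are small: the median absolute log2 fold change of the called genes was 0.31, and 96 of them reached 2-fold, 59 higher and 37 lower. For 3001 genes (19.2%) the 5 libraries of one genotype lay wholly above or below those of the other. With 27.9% of all genes called, a call by itself singles out little, and the counts below are read against that share.

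The fold changes rose with gene length. Length was taken as the ratio of estimated counts to TPM, a unit scaled by length, relative to the median gene. Across 15549 genes the Spearman correlation of log2 fold change with length was 0.502. In the shortest decile of genes the median log2 fold change was -0.22, with 36.2% called lower and 2.64% called higher. In the longest decile it was 0.28, with 52.6% called higher and 0.772% called lower. The same trend appears library by library, as the correlation across genes between length and a library's deviation from the mean of all libraries. That correlation was 0.317, 0.275, -0.014, -0.052 and 0.146 in 3bp-12bp-del replicates 1 to 5 and -0.479, -0.267, -0.428, -0.155 and -0.408 in the 3bp-del replicates. The groups did not overlap. The exact permutation p was 0.00794 (two-sided, 5 against 5 libraries, the smallest it can be), or 0.0635 after Benjamini-Hochberg adjustment over 8 such tests. Wild-type XX libraries stood at 0.236, 0.277 and 0.212, on the side of the 3bp-12bp-del libraries, but wild-type XY libraries spread over 0.073, -0.206 and 0.419. The other XX groups, used only here, stood at -0.063, -0.063 and 0.016 (Enh13-3bp-del-het), -0.432 to -0.13 (Enh13-1bp-ins-hom) and -0.097, 0.261 and 0.128 (Enh13-1bp-ins-het). What sets the trend was not tested, and the labels give no RNA quality or preparation batch to set beside it.

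**Figure D1:**
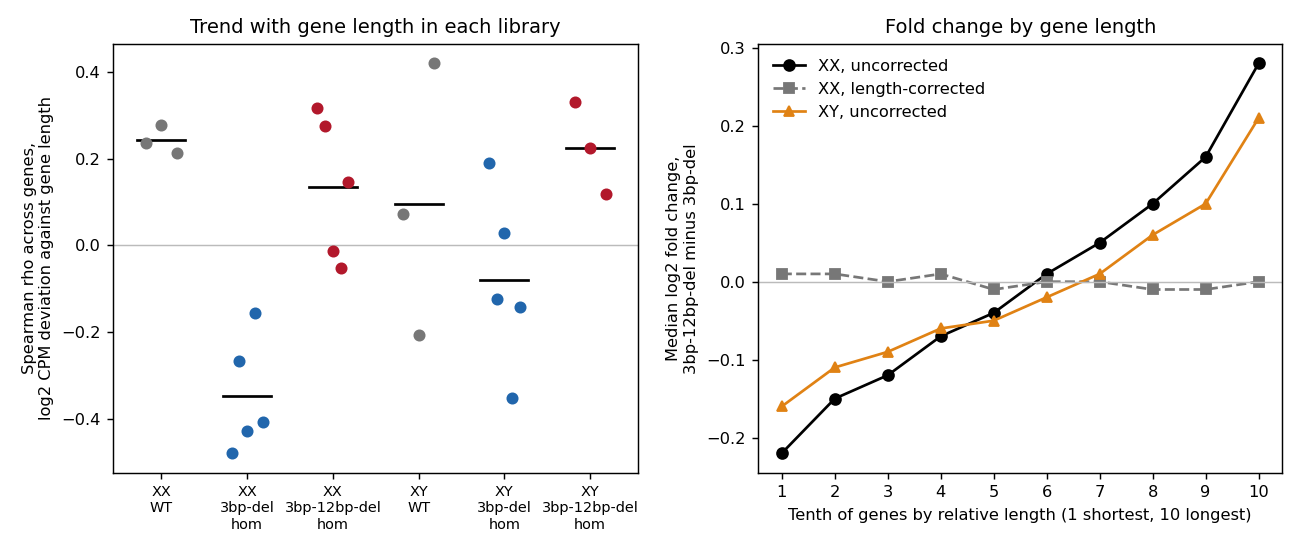
The fold changes between XX 3bp-12bp-del and XX 3bp-del homozygotes are plotted against relative gene length, with the library-by-library length correlations beside them. The median log2 fold change runs from -0.22 in the shortest decile of genes to 0.28 in the longest, and the 5 libraries of each genotype do not overlap in their correlation with length.

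After each library's trend with length was removed, the correlation was -0.0269 and 2481 genes were called (15.9%), 1256 higher (8.05%) and 1225 lower (7.85%). Of these, 1733 were called with the same direction in both fits, 967 higher and 766 lower. A further 2627 genes were called only without the removal and 748 only with it. Of the genes that changed at least 2-fold, 48 did so and were called in both fits. The removal would also take out a biological difference that follows length, so both values are given. Counts of list members called without the length trend are read against the shares of 8.05% higher and 7.85% lower.

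Sox9 was not called. Its levels were 153, 217, 220, 268 and 217 CPM in 3bp-12bp-del replicates 1 to 5 (215 ± 40.8, SD, n = 5) and 193, 211, 171, 150 and 178 CPM in the 3bp-del replicates (181 ± 23.0). The groups overlapped, with 3bp-12bp-del replicate 1 below 4 of the 5 3bp-del libraries. The log2 fold change was 0.25 ± 0.13 (SE; adjusted p = 0.188), and 0.12 after the removal of the length trend (adjusted p = 0.618). Without 3bp-12bp-del replicate 1 it was 0.36 and passed the threshold (adjusted p = 0.0233). Sox9 lies at chr11:112782224-112787760 on the plus strand (mm10), and both means exceed the mean of 136 CPM in wild-type XY gonads. The wild-type XY range, 85.7 to 163 CPM, holds the lowest library of each genotype (153 and 150 CPM). Its divergent neighbour BC006965 stood at 3.63 ± 1.37 and 3.31 ± 1.51 CPM (adjusted p = 0.794). Of the 13 tested genes within 2 Mb of Sox9, only Sdk2 (0.44, adjusted p = 0.0195) and Rpl38 (-0.38, adjusted p = 0.00222) were called as fitted. Neither was called after removal of the length trend (0.08, adjusted p = 0.551, and -0.05, adjusted p = 0.404), where Cdc42ep4, named after its values were seen, was the 1 called gene of the window (-0.17, adjusted p = 0.0483; -0.14, adjusted p = 0.0741 as fitted). The list of Sox9 neighbours, chosen apart from that window, had 7 tested genes, of which edgeR called 0, DESeq2 called 0 and 0 had an unadjusted p under 0.05.

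Of 26 Sertoli genes tested 2 rose, Cyp26b1 and Inhbb, and none fell. The share that rose, 7.69%, is below the 14.9% of all genes, although 20 of the 26 had positive fold changes and the list's median was 0.19, beside -0.01 over all genes. Cyp26b1 stood at 122, 133, 127, 192 and 174 CPM in the 3bp-12bp-del libraries (149 ± 31.4) and at 108, 92.1, 88.4, 63.1 and 67.4 CPM in the 3bp-del libraries (83.8 ± 18.5). Every 3bp-12bp-del library was above every 3bp-del library, and the group mean lies between the wild-type XX mean of 20.9 CPM and the wild-type XY mean of 188 CPM. It rose by 0.83 ± 0.18 on the log2 scale (adjusted p = 0.00675), or 0.69 without the length trend (adjusted p = 0.0396). Without the library rich in nephric-duct RNA and without the length trend it was 0.59 (adjusted p = 0.0776). The Cyp26b1 call was also lost with replicate numbers as a block. In the Sertoli list without that library, 2 genes rose and 1 fell as fitted, and edgeR called 0 without the length trend as well. Inhbb, which encodes a subunit of activin B and inhibin B, was higher in all 5 3bp-12bp-del libraries (245 to 284 CPM) than in the 3bp-del libraries (143 to 240 CPM). Its log2 fold change of 0.36 ± 0.11 (adjusted p = 0.0324) became 0.22 (adjusted p = 0.281) without the length trend, and its call was lost in 7 of the 10 fits that left out 1 library (adjusted p up to 0.0613).

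For the Sertoli hormone genes the difference between the genotypes was smaller than the SD of the 3bp-12bp-del group. Amh, whose product makes the Müllerian ducts regress, stood at 86.8, 34.3, 12.6, 183 and 143 CPM in the 3bp-12bp-del libraries and at 88.1, 36.3, 72, 21.3 and 35.7 CPM in the 3bp-del libraries. The highest and the lowest of the 10 values are both in the 3bp-12bp-del group (0.86 ± 0.72, adjusted p = 0.414). Dhh, the Hedgehog ligand of Sertoli cells, had the same order of libraries in the 3bp-12bp-del group, from 15.4 CPM in replicate 3 to 115 CPM in replicate 4, against 21.7 to 69.3 CPM in the 3bp-del group (adjusted p = 0.391). Wild-type XX gonads had means of 0.17 CPM for Amh and 1.28 CPM for Dhh. Sostdc1 had the largest fold change of the uncalled members (-1.77, adjusted p = 0.233), which rests on 7.25 CPM in 3bp-del replicate 4, against 0.329 to 0.464 CPM in the rest of that group.

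**Figure D2:**
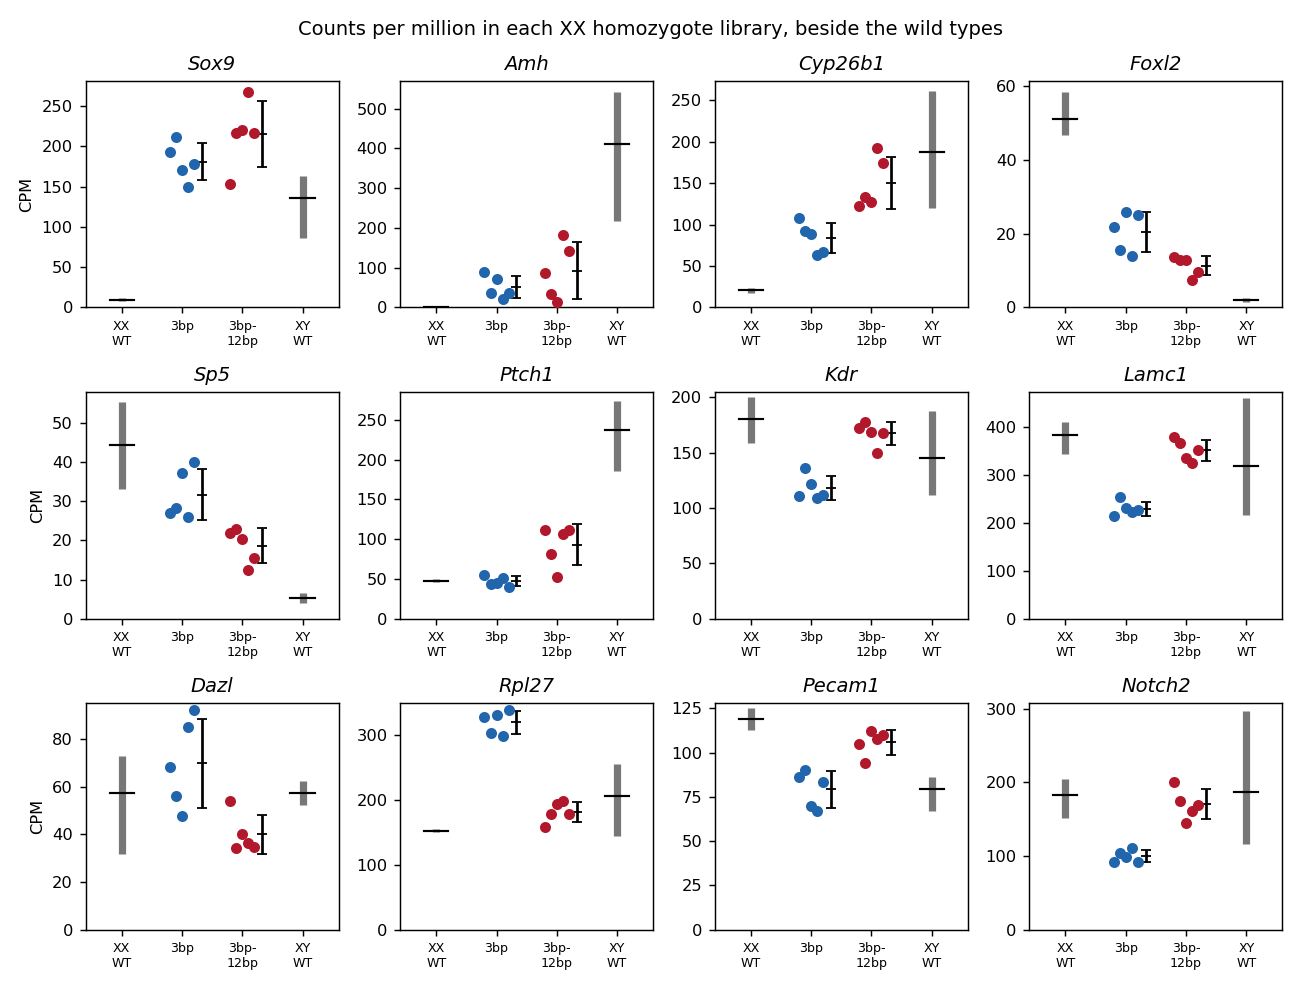
CPM of 12 genes is plotted in each XX library of the 2 genotypes, with the group mean ± SD in black and the range of the wild-type XX and XY libraries as grey bars. Cyp26b1, Kdr, Lamc1, Pecam1 and Notch2 are higher and Foxl2, Sp5 and Rpl27 lower in every 3bp-12bp-del library than in any 3bp-del library, while Sox9 and Amh overlap.

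Of 21 pregranulosa genes tested 5 fell (Foxl2, Sp5, Msx2, Irx3 and Irx5) and 1 rose (Lgr5), with 16 negative fold changes and a median of -0.22. The share that fell was 23.8%, beside 13% of all genes. Without the length trend 3 of the 21 fell and none rose, where 7.85% of all genes fell and 8.05% rose. Foxl2, the factor that maintains ovarian identity, stood at 13.6, 13, 12.9, 7.55 and 9.57 CPM in the 3bp-12bp-del libraries (11.3 ± 2.63) and at 21.8, 15.7, 26, 13.9 and 25 CPM in the 3bp-del libraries (20.5 ± 5.47). The groups did not overlap by a narrow margin, 13.6 against 13.9 CPM, and both lie below the wild-type XX range of 46.8 to 58.6 CPM. On the log2 scale the difference was -0.85 ± 0.21 (adjusted p = 0.0134) and -0.91 without the length trend (adjusted p = 0.0185). The opposite-strand gene Foxl2os overlaps Foxl2, and the handling of strand is not given in the sources used here, so reads of the 2 genes may be mixed.

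Sp5, a target gene of WNT and beta-catenin signalling whose promoter is given above, stood at 22, 23, 20.4 and 15.5 CPM in 3bp-12bp-del replicates 1, 2, 3 and 5 and lower still in replicate 4, against 27, 28.2, 37.4, 26.1 and 40.1 CPM. All 5 3bp-12bp-del libraries were below all 5 3bp-del libraries, with means of 18.7 and 31.8 CPM beside 44.4 CPM in wild-type XX and 5.31 CPM in wild-type XY gonads. The log2 fold change was -0.76 ± 0.19 (adjusted p = 0.0123), and -0.70 without the length trend (adjusted p = 0.0314). Msx2, a homeobox gene of the BMP response, fell by 0.73 ± 0.21 on the log2 scale (adjusted p = 0.0208), from a mean of 6.17 to 3.70 CPM, and by 0.71 without the length trend (adjusted p = 0.0409). Its call was lost without replicate 5 of either genotype (adjusted p up to 0.0556), and its call without the length trend was lost when 3bp-del replicate 4 was left out as well (-0.66, adjusted p = 0.0724). The related Msx1 was at 43.8 and 29.6 CPM (-0.56, adjusted p = 0.0643), and the signal gene Wnt4 at 175 and 131 CPM (-0.42, adjusted p = 0.103). The Iroquois genes Irx3 (-0.54 ± 0.18, adjusted p = 0.0484) and Irx5 (-0.69 ± 0.21, adjusted p = 0.0301) kept the size of their fold changes without the length trend (-0.55 and -0.67) but not their calls (adjusted p = 0.0682 and 0.0515). They lost them also in 7 and 6 of the 10 fits that left out 1 library, and Irx3 shares its locus with the opposite-strand Irx3os. Lgr5, a receptor for R-spondins, went the other way: 27.9 to 34.5 CPM in the 3bp-12bp-del libraries and 13.9 to 24.8 CPM in the 3bp-del libraries (0.54 ± 0.13, adjusted p = 0.00941; 0.38, adjusted p = 0.116 without the length trend). Lgr5 was lower in wild-type XX (14.1 CPM) than in wild-type XY gonads (31.0 CPM), so its direction here is also that of the XY gonad.

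The wild-type libraries define which genes differ between testis and ovary at this stage. Between wild-type XY and XX gonads 929 autosomal genes were called and differed at least 2-fold, 5.91% of 15730 tested. Of the 399 with higher levels in XY that were also tested here, 76 rose (19%) and 1 fell in the 3bp-12bp-del group, with a median log2 fold change of 0.30, and 33 rose and 1 fell without the length trend, with a median of 0.28. Of the 489 with lower levels in XY, 48 rose and 25 fell, with a median of 0.05, or 16 and 12 with a median of 0 without the length trend. The shares of rising genes, 19% and 9.82%, stand beside 14.9% of all genes, and without the length trend 8.27% and 3.27% stand beside 8.05%, so the share of the genes higher in XY is then that of all genes. The shares of falling genes, 0.251% and 5.11%, stand beside 13% of all genes. Without the length trend 0.251% and 2.45% stand beside 7.85%. Genes lower in XY thus fell less often than all genes in both fits. On a scale over the 929 genes where 0 is the mean of wild-type XX and 100 the mean of wild-type XY, the 3bp-12bp-del libraries stood at 54.7, 49.9, 33.6, 68.9 and 65.1% and the 3bp-del libraries at 53.9, 45.5, 50.2, 46.4 and 42.3%. These ranges overlap, and replicate 3 of the 3bp-12bp-del group is the nearest of the 10 to wild-type XX. The mean log2 CPM of the Sertoli list minus that of the pregranulosa list was -0.38, -0.53, -1.01, 0.51 and 0.16 in the 3bp-12bp-del libraries and -0.39, -0.71, -0.63, -0.80 and -0.99 in the 3bp-del libraries, again with replicate 3 lowest and replicates 4 and 5 highest.

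Ptch1 rose, with more spread than the genes above. Ptch1, the Hedgehog receptor and a target of its own pathway, stood at 112, 81.6, 52.2, 106 and 112 CPM against 55.3, 44.1, 45.1, 51.5 and 40.1 CPM. Replicate 3 of the 3bp-12bp-del group lay within the 3bp-del range and the other 4 above it. The 3bp-del mean of 47.2 ± 6.13 CPM is close to the 47.5 CPM of wild-type XX gonads, and wild-type XY gonads had 237 CPM. Its log2 fold change was 0.97 ± 0.20 (adjusted p = 0.00614), and 0.68 without the length trend (adjusted p = 0.0493), or 0.68 with an adjusted p of 0.0993 when 3bp-del replicate 4 was left out as well. Ptch1 was the only called gene of the 4 Hedgehog targets tested. Gli1, the transcriptional effector, stood at 19.8, 12, 3.46, 14.5 and 18.2 CPM against 7.93 to 15.4 CPM (0.32 ± 0.39, adjusted p = 0.588), lowest in the same replicate 3.

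Of 12 steroidogenic genes tested only Fdx1, which encodes an electron carrier for mitochondrial P450 enzymes, was called, with means of 14.5 and 18.4 CPM (-0.34 ± 0.08, adjusted p = 0.00692; -0.14, adjusted p = 0.21 without the length trend). Cyp11a1, the side-chain cleavage enzyme of the first step from cholesterol, stood at 4.56, 6.04, 19.9, 10 and 6.44 CPM against 4.07 to 8.77 CPM (0.82 ± 0.41, adjusted p = 0.166).

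Of 16 stromal genes 1 rose and 3 fell, as fitted and without the length trend, though 12 of the 16 had negative fold changes. The shares as fitted, 6.25% higher and 18.8% lower, stand beside 14.9% and 13% of all genes. Pdgfra, the PDGF receptor of interstitial cells, stood at 318, 290, 268, 285 and 313 CPM against 205, 227, 221, 213 and 210 CPM. The groups were well apart, and wild-type XX gonads had 282 CPM. Pdgfra thus rose by 0.45 ± 0.05 on the log2 scale (adjusted p = 0.000233), and 0.19 without the length trend (adjusted p = 0.0195). Col1a1, a chain of type I collagen, fell from a mean of 723 ± 149 to 477 ± 51.6 CPM (-0.60 ± 0.14, adjusted p = 0.00921), and by more without the length trend (-0.83, adjusted p = 0.00307), at a relative length of 2.42. It overlapped between the groups through 490 CPM in 3bp-del replicate 1. Acta2, the smooth muscle actin gene, had means of 19 and 29.4 CPM (-0.63 ± 0.16, adjusted p = 0.015), also called without the length trend. Dcn, a proteoglycan gene, had 40.8 and 61.5 CPM (-0.59 ± 0.18, adjusted p = 0.0342; -0.50, adjusted p = 0.123 without the length trend). In whole gonads, fewer cells of a type and less RNA per cell cannot be told apart, for these genes and for those below.

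Basement membrane genes were higher throughout. All 16 tested members had positive fold changes, and 11 rose and none fell (68.8% against 14.9% of all genes). In 10 the groups did not overlap as fitted, beside 19.2% of all genes. The median log2 fold change was 0.51, or 0.31 without the length trend, where 6 were called, all higher, beside 8.05% of all genes. These genes are long (median relative length 2.04), so the rise of the list and the length trend cannot be told apart in full. Lamc1, the gamma chain shared by most laminins, stood at 380, 366, 336, 326 and 352 CPM (352 ± 22.1) against 215, 254, 232, 223 and 226 CPM (230 ± 14.9). The nearest libraries of the 2 groups are 326 and 254 CPM, and the wild-type XX range is 345 to 410 CPM. Its log2 fold change was 0.61 ± 0.06 (adjusted p = 6.73e-05), and 0.45 without the length trend (adjusted p = 0.000192). Lama4, a laminin chain of vessel walls, stood at 141, 133, 106, 141 and 147 CPM against 84.8, 86.3, 82.3, 68.2 and 81.1 CPM (0.73 ± 0.09, adjusted p = 0.000265; 0.62, adjusted p = 0.00166). The chains Lama1 (0.67 ± 0.10; 0.44, adjusted p = 0.0041) and Lamb1 (0.51 ± 0.06; 0.28, adjusted p = 0.00167) and the heparan sulfate proteoglycan genes Hspg2 (0.70 ± 0.11; 0.50, adjusted p = 0.00367) and Agrn (0.46; 0.33, adjusted p = 0.0145) also rose in both fits. The type IV collagen chain Col4a2 (0.72 ± 0.13, adjusted p = 0.00237) was not called without the length trend (0.45, adjusted p = 0.0655).

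**Figure D3:**
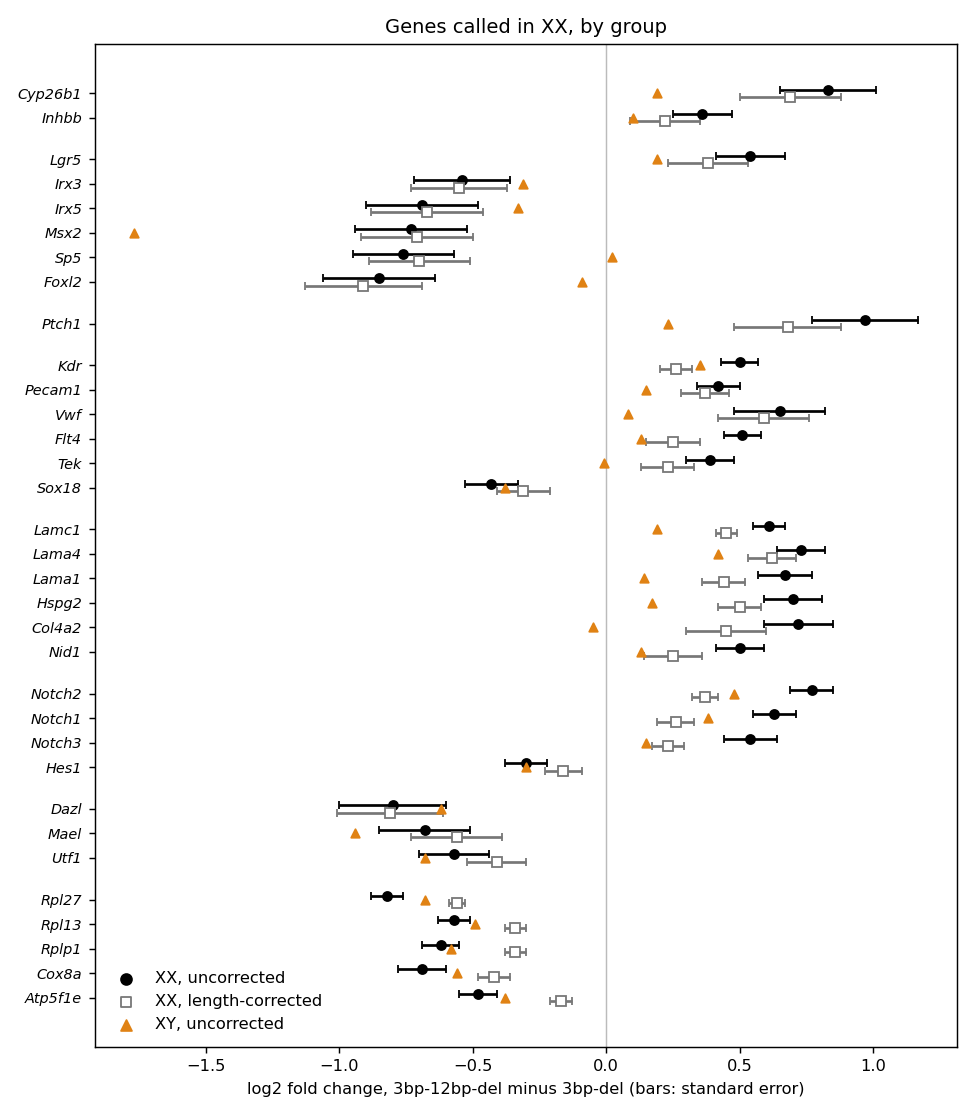
Log2 fold changes ± SE are drawn for named genes in 8 groups, as fitted in XX gonads (black circles), after removal of the length trend (open grey squares) and in XY gonads (orange triangles). Basement membrane, vessel and Notch genes, other than Sox18 and Hes1, lie right of 0 and move toward 0 when the length trend is removed, and the short genes lie left of 0 in XX and XY.

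Endothelial genes moved both ways. Of 18 tested, 6 rose (Kdr, Flt4, Pecam1, Tek, Flt1 and Vwf) and 2 fell (Sox18 and Cldn5), and the list's summed level was 888 to 1090 CPM in the 3bp-12bp-del libraries and 759 to 930 CPM in the 3bp-del libraries. The shares, 33.3% higher and 11.1% lower, stand beside 14.9% and 13% of all genes. Kdr, the main VEGF receptor, stood at 172, 178, 169, 150 and 168 CPM against 111, 136, 122, 109 and 112 CPM. The groups did not overlap, and wild-type XX gonads had 180 CPM. Its log2 fold change was 0.50 ± 0.07 (adjusted p = 0.000392), and 0.26 without the length trend (adjusted p = 0.0138). Pecam1, an adhesion molecule of all endothelium, stood at 105, 94.3, 112, 108 and 110 CPM against 86, 90.3, 69.9, 66.8 and 83.3 CPM (0.42 ± 0.08, adjusted p = 0.00335; 0.37, adjusted p = 0.0146). Vwf, the von Willebrand factor gene, was also called in both fits (0.65 ± 0.17; 0.59, adjusted p = 0.0321). Flt4, Tek and Flt1, receptors for VEGF and angiopoietins, were called only as fitted (0.51, 0.39 and 0.46; 0.25, 0.23 and 0.19 without the length trend, adjusted p = 0.0963, 0.148 and 0.389). Sox18, a short transcription factor gene of vessels, had means of 30 and 40.3 CPM (-0.43 ± 0.10, adjusted p = 0.0103; -0.31, adjusted p = 0.0487 without the length trend, and -0.33, adjusted p = 0.06 without 3bp-del replicate 4 as well). The tight junction gene Cldn5 (-0.30 ± 0.10, adjusted p = 0.0409) was not called without the length trend (-0.16, adjusted p = 0.261).

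Of the Notch genes 3 receptors rose, and only Hes1 fell, as fitted only. Notch2 stood at 201, 175, 145, 161 and 169 CPM against 92.1, 104, 98.7, 111 and 92.2 CPM, without overlap, beside 152 to 205 CPM in wild-type XX gonads. Its log2 fold change of 0.77 ± 0.08 (adjusted p = 0.000122) was 0.37 without the length trend (adjusted p = 0.000933), for a gene of relative length 4.35. Notch1 (0.63 ± 0.08; 0.26, adjusted p = 0.0281) and Notch3 (0.54 ± 0.10; 0.23, adjusted p = 0.0309) were called in both fits. Hes1, a transcriptional repressor induced by Notch, stood at 39.3 to 45.5 CPM against 47.4 to 60.6 CPM (-0.30 ± 0.08, adjusted p = 0.0127), and was not called without the length trend (-0.16, adjusted p = 0.121). Of the 13 Notch genes tested 3 rose and 1 fell, or 23.1% and 7.69% beside 14.9% and 13% of all genes. The list's median log2 fold change was 0.13, or 0.02 without the length trend, at a median relative length of 1.67. The list as a whole is thus not set apart from all genes by these counts.

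Germ cell genes tended to be lower. Of 13 genes expressed in germ cells of both sexes 5 fell (Utf1, Mael, Dazl, Nanos3 and Dnd1), none rose, and the median was -0.29; without the length trend 3 fell, with a median of -0.24. The share that fell as fitted, 38.5%, stands beside 13% of all genes, and without the length trend 7.85% of all genes fell. Dazl, an RNA-binding protein gene that licenses germ cells for sexual differentiation, stood at 54, 34.3, 40, 36.5 and 34.8 CPM against 68.2, 55.9, 47.5, 85 and 91.9 CPM. The groups overlapped through replicate 1 of the 3bp-12bp-del group, and wild-type XX gonads had 57.4 CPM. Dazl fell, with a log2 fold change of -0.80 ± 0.20 (adjusted p = 0.0142), and -0.81 without the length trend (adjusted p = 0.0257). Utf1, a chromatin factor of pluripotent and germ cells, had means of 62.1 and 92.5 CPM (-0.57 ± 0.13, adjusted p = 0.00686; -0.41, adjusted p = 0.0261). Mael, which acts in transposon silencing, had 4.33 and 6.96 CPM (-0.68 ± 0.17, adjusted p = 0.01; -0.56, adjusted p = 0.0386). Ddx4, the germ cell helicase, was not called (33.1 and 42.1 CPM, -0.35 ± 0.12, adjusted p = 0.0558). Without 3bp-del replicate 4, 3 of the 13 fell as fitted and 1 without the length trend. Of 10 meiotic genes Hormad1 (-0.61 ± 0.16, adjusted p = 0.0151) and Zglp1 (-0.92 ± 0.26, adjusted p = 0.0199) fell, and neither was called without the length trend (-0.47 and -0.73, adjusted p = 0.0737 and 0.089). The share of meiotic genes that fell, 20%, stands beside 13% of all genes. None of 4 male germ cell genes was called by edgeR or DESeq2 or had an unadjusted p under 0.05.

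Of 7 genes of the surface epithelium 4 fell (Krt19, Krt7, Krt8 and Upk1b) and 0 did without the length trend (edgeR; 3 at an unadjusted p under 0.05). The share as fitted, 57.1%, stands beside 13% of all genes. Krt19 had the largest difference, with means of 9.83 and 16.4 CPM (-0.74 ± 0.18, adjusted p = 0.0107; -0.60, adjusted p = 0.0712), and its highest value of 24.3 CPM was in 3bp-del replicate 4. All 9 mesonephros genes tested had negative fold changes (median -0.61), with 0 called by edgeR, 1 by DESeq2 and 1 at an unadjusted p under 0.05. Wnt9b, a signal of the nephric duct, stood at 0.29 to 0.589 CPM in the 3bp-12bp-del libraries and at 0.191, 1.41, 0.25, 11.8 and 0.567 CPM in the 3bp-del libraries, so its fold change rests on replicate 4. None of the adrenal (7), neural (8) and skeletal muscle (4) genes tested was called by edgeR or DESeq2, and 1, a neural gene, had an unadjusted p under 0.05; the medians were -0.37, -0.42 and 0.37. Without 3bp-del replicate 4, 1 adrenal gene was called, lower. The part of these cells in the other results was not tested beyond leaving out that library. The erythroid list summed to 4960 to 7200 CPM and 5820 to 9620 CPM, and of its 10 genes Hba-a1, an alpha globin gene, fell (-0.53 ± 0.14, adjusted p = 0.0162; -0.28, adjusted p = 0.267 without the length trend); its copy Hba-a2 is nearly identical, so its count is uncertain. Of 13 macrophage genes Csf1r alone was called, higher (0.46 ± 0.15, adjusted p = 0.0419; 0.35, adjusted p = 0.143 without the length trend). Without 3bp-del replicate 4, 2 macrophage genes rose, and 1 erythroid gene rose and 1 fell.

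Short housekeeping genes were lower. Of 28 ribosomal protein genes 26 fell and none rose, against 13% of all genes called lower, and each of the 28 had a negative fold change with a median of -0.32. These are short genes (median relative length 0.23), and without the length trend 10 fell, with a median of -0.09, beside 7.85% of all genes called lower. Rpl27 stood at 158, 179, 193, 198 and 179 CPM (181 ± 15.4) against 328, 303, 330, 299 and 339 CPM (320 ± 17.6). The groups lie far apart, at 198 and 299 CPM at the nearest, and wild-type XX gonads had 150 to 155 CPM, just below the 3bp-12bp-del group. Rpl27 differed by -0.82 ± 0.06 on the log2 scale (adjusted p = 1.87e-05), and -0.56 without the length trend (adjusted p = 9.08e-06). Rpl13 (-0.57 ± 0.06; -0.34, adjusted p = 0.000356) and Rplp1 (-0.62 ± 0.07; -0.34, adjusted p = 0.000362) fell in both fits as well. Ribosomal protein genes have many processed pseudogenes, so reads may be shared among copies. Of 22 oxidative phosphorylation genes 14 fell and none rose as fitted (median -0.25, median relative length 0.15), a share of 63.6% beside 13% of all genes. Without the length trend, however, 5 rose, 3 fell and the median was 0.03, where 8.05% of all genes rose and 7.85% fell. Leaving out 3bp-del replicate 4 as well gave 3 that rose and 4 that fell. The direction of this list therefore depends on the removal. Cox8a, a subunit of cytochrome c oxidase, fell in both (-0.69 ± 0.09; -0.42, adjusted p = 0.00159).

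Of 16 cell cycle genes 3 rose (Mki67, Cenpf and Top2a) and Ccne1 fell, and 0 were called without the length trend (edgeR; 2 at an unadjusted p under 0.05). The shares as fitted, 18.8% higher and 6.25% lower, stand beside 14.9% and 13% of all genes. Without 3bp-del replicate 4, 3 rose and 4 fell as fitted, and 1 fell without the trend. Mki67, the proliferation antigen gene of relative length 4.1, had means of 343 and 245 CPM (0.48 ± 0.07, adjusted p = 0.000731), and a log2 fold change of 0.09 without the length trend (adjusted p = 0.474). Top2a, a DNA topoisomerase gene of relative length 1.3, changed less between the fits (0.23 ± 0.07, adjusted p = 0.0331; 0.17, adjusted p = 0.0963). Of 12 heat shock genes Hspb1 (-0.53 ± 0.09) and Dnajb1 (-0.31 ± 0.06) fell in both fits (adjusted p = 0.0122 and 0.00276 without the length trend), and without 3bp-del replicate 4 the heat shock genes that fell were 5. Of 20 splicing genes 2 rose and 1 fell, or 10% and 5% beside 14.9% and 13% of all genes, but without 3bp-del replicate 4, 2 rose and 6 fell. Srsf5 rose more without the length trend (0.31 ± 0.06; 0.45, adjusted p = 0.000496) and Tra2b fell in both (-0.21 ± 0.05; -0.17, adjusted p = 0.0154). Of 9 histone genes 3 fell, or 33.3% beside 13% of all genes, among them H2ac8 (-0.78 ± 0.13; -0.54, adjusted p = 0.0141), 1 of many near-identical copies. Of 17 glycolysis and hypoxia genes Vegfa rose and Ndrg1 fell (without 3bp-del replicate 4, none rose and 1 fell), of 8 nuclear-retained RNAs 1 fell, and of 9 immediate early genes edgeR and DESeq2 called 0, with 1 at an unadjusted p under 0.05. Xist, at relative length 4.82, stood at 67.7 to 191 CPM against 51.5 to 66.2 CPM (0.85 ± 0.27, adjusted p = 0.0415; 0.38, adjusted p = 0.288 without the length trend), a call lost in 7 of the 10 fits that left out 1 library.

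**Figure D4:**
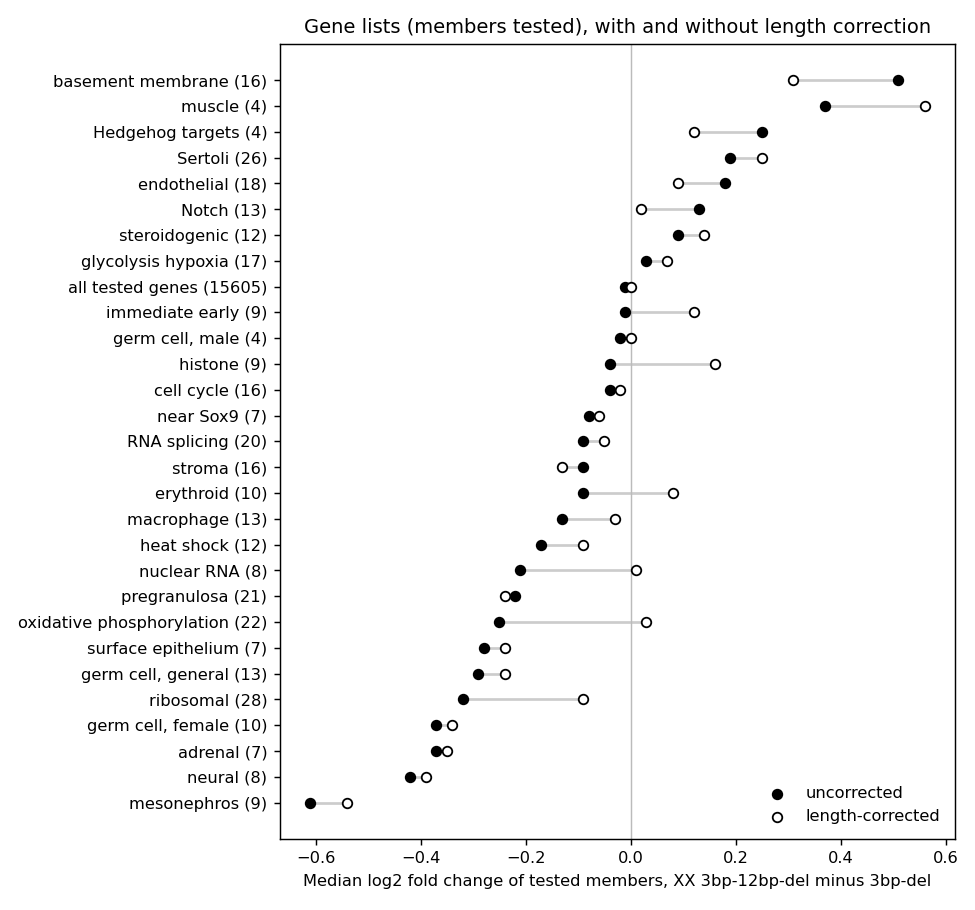
The median log2 fold change of each gene list described here in XX gonads is plotted as fitted (filled) and after removal of the length trend (open), with 0 marking no difference. The ribosomal list moves from -0.32 to -0.09 and the oxidative phosphorylation list from -0.25 to 0.03, while the Sertoli list goes from 0.19 to 0.25.

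The largest changes lay outside the lists. Atp7a, an X-linked copper transporter gene, stood at 99.7, 99, 88.1, 81.5 and 88.4 CPM against 35.3, 42, 34.1, 43.6 and 31.8 CPM. The lower group is the one that departs from wild-type XX gonads, which had 75.4 to 94.5 CPM. Atp7a rose by 1.29 ± 0.09 on the log2 scale (adjusted p = 1.34e-05), and 1.11 without the length trend (adjusted p = 9.08e-06). Adcy9, an adenylyl cyclase gene, had means of 9.99 ± 1.31 and 3.79 ± 0.46 CPM (1.40 ± 0.12, adjusted p = 3.69e-05; 1.23, adjusted p = 0.000178). Hmcn1, which encodes the extracellular matrix protein hemicentin, stood at 86.6, 46.8, 37, 42.4 and 49.5 CPM against 16 to 19.9 CPM (1.56 ± 0.22, adjusted p = 0.000896; 1.38, adjusted p = 0.00226), below the wild-type XX mean of 75.1 CPM in both group means. Lrp4, a cell-surface co-receptor gene, had means of 97.3 and 45.6 CPM, both above the 21.3 CPM of wild-type XX and on either side of the 64.1 CPM of wild-type XY gonads (1.09 ± 0.17, adjusted p = 0.00135; 0.77, adjusted p = 0.029 without the length trend, and 0.69, adjusted p = 0.0638 without 3bp-del replicate 4 as well). The potassium channel gene Kcnh1 (69.3 and 32.7 CPM), the calcium pump gene Atp2b3 (17.7 and 8.03 CPM) and the cytoskeletal linker gene Dst (62.2 and 28.4 CPM) rose by 1.08 to 1.14 and were called in both fits. The long genes Sphkap (17.6 and 7.04 CPM; 1.33 ± 0.40, adjusted p = 0.0352) and Cntnap5a (30.5 and 14.4 CPM; 1.08 ± 0.29, adjusted p = 0.0211) had their highest values of 40.6 and 55.4 CPM in 3bp-12bp-del replicate 3. They were not called without the length trend (1.06, adjusted p = 0.122, and 0.69, adjusted p = 0.18) or without 3bp-del replicate 4 (adjusted p = 0.0748 and 0.0501).

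Several of the extreme rows cannot be taken at face value. Derpc fell most (-3.07 ± 0.35, adjusted p = 0.000451), from a mean of 30.2 to 3.61 CPM. RefSeq gives it the same span as Chtf8, which rose by 0.29 ± 0.07 (adjusted p = 0.0098), so the reads may have been divided differently between the 2. The pseudogene rows Rpl7a-ps11 (4.42 ± 1.12), Rpl17-ps3 (-1.51 ± 0.33) and Atp6-ps (-1.08 ± 0.13) and the gene copy Ndufb4b (1.77 ± 0.24) share sequence with their parent genes and are uncertain for the same reason. Zbed6 (1.2 ± 0.24) lies within Zc3h11a, which was not called (-0.11, adjusted p = 0.125). Twist2, a transcription factor gene of mesenchyme (-1.13 ± 0.32, adjusted p = 0.023), the oxysterol hydroxylase gene Cyp7b1 (-1.03 ± 0.27) and Lrrc4b (-0.99 ± 0.23) had their highest values of 13.7, 7.7 and 7.14 CPM in 3bp-del replicate 4. Without that library their log2 fold changes were -0.69, -0.65 and -0.76, all still called as fitted. Twist2 lost its call without the length trend, whether that library was kept or left out, while Cyp7b1 and Lrrc4b kept theirs.

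The same contrast in XY gonads shares no library with the XX one. Of 15865 genes tested there 654 were called (4.12%), or 181 without the length trend (1.14%), with 3 libraries in one group. That count hangs on single libraries: it was 1 without XY 3bp-12bp-del replicate 2 and 1789 without XY 3bp-del replicate 1. The latter library stood apart in its surface epithelium list, which summed to 1030 CPM against 261 to 315 CPM in the rest of its group. Its stromal list summed to 10300 CPM, against 3900 to 5480 CPM. The part of this library in the XY values below was not tested beyond leaving it out of the counts of called genes. Of the 4354 XX calls tested in XY, 4147 (95.2%) had the same direction, beside 75.5% of all 15427 genes tested in both, 571 (13.1%) were called in that direction and 0 in the opposite one, and 87.4% of the 653 XY calls tested in XX were also XX calls. Across 15427 genes the Spearman correlation of the 2 sets of fold changes was 0.602, as a description. The correlation of the XY fold changes with gene length was 0.352. Without the length trend 2324 of 2476 XX calls (93.9%) had the same direction in XY, beside 71.7% of all genes. The correlation of the 2 sets of fold changes was then 0.524. The labels give no preparation batch, and the source of the likeness between XX and XY was not tested. Of the genes described above, Rpl27 (-0.68, adjusted p = 0.0294), Cox8a (-0.56, adjusted p = 0.0148), Atp7a (0.74, adjusted p = 0.0335) and Adcy9 (0.80, adjusted p = 0.0335) were called in XY in the direction seen in XX. Of 28 ribosomal protein genes 4 fell in XY (median -0.26, or -0.11 without the length trend). Of 16 basement membrane genes edgeR called 0 in XY (median 0.13, or -0.04 without the length trend). It called 0 of 18 endothelial genes (-0.05, or -0.13), and of 13 Notch genes 0 rose and 1 fell (0.05, or -0.09).

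The supporting-cell genes were not called in XY. Cyp26b1 had means of 254 and 222 CPM in the XY 3bp-12bp-del and 3bp-del groups (0.19 ± 0.11, adjusted p = 0.317), Foxl2 had 0.968 and 1.02 CPM (adjusted p = 0.887) and Sp5 had 3.92 and 3.86 CPM (adjusted p = 0.975). Foxl2 and Sp5 are far lower in these XY gonads than in the XX ones, so a fall could hardly have been seen there. Sox9 stood at 221, 322 and 243 CPM against 208, 197, 173, 219 and 226 CPM in XY, again higher on average without a call (0.35 ± 0.13, adjusted p = 0.142). The difference between the XX and XY contrasts was tested for each gene as an interaction, and no gene of 16443 was called by edgeR (0%), while 897 (5.46%) had an unadjusted p under 0.05. DESeq2 called none either, with 1004 at an unadjusted p under 0.05. The interaction for Cyp26b1 was 0.64 with an unadjusted p of 0.0137 and an adjusted p of 0.845, so these data do not show that the supporting-cell differences belong to XX gonads alone.

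Wild-type XX gonads allow a further description, since their libraries are in neither group. Of the 4360 called genes 3390 (77.8%) had a 3bp-12bp-del mean nearer to the wild-type XX mean than the 3bp-del mean was, and without the length trend it was 1720 of 2481 (69.3%). As fitted, with the length trend in place, all 26 called ribosomal protein genes, 8 of the 11 basement membrane genes and 7 of the 8 endothelial genes were of this kind. The length correlations of the wild-type XX libraries (0.236, 0.277 and 0.212) lie on the side of the 3bp-12bp-del libraries, while those of the wild-type XY libraries spread from -0.206 to 0.419. The part of the length trend in these list counts was not tested. The genes that distinguish the wild-type sexes went the other way: 49 of 150 (32.7%) were nearer in the 3bp-12bp-del group, or 15 of 62 (24.2%) without the length trend, beside 1705 of 2419 other genes (70.5%). None of the 6 pregranulosa genes called as fitted was nearer in the 3bp-12bp-del group.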

How the data were processed

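The libraries are poly(A)-selected RNA from whole mouse gonads at E12.5, made from 140 ng of total RNA each, per the labels' protocols. Reads were processed on mm10, per the submitters' processing notes. Aligner, quantifier, annotation and strand setting were not given in the sources used here. Estimated counts, which were rounded here, were deposited by the authors, and so was TPM, which they scaled by length. A column of each deposited table matched no sample and was not used (1 per table).

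Samples were grouped by the sex and genotype in their titles. Genes passing filterByExpr were tested on the 2 groups compared with edgeR 4.0.16 (robust quasi-likelihood F test, TMM) in R 4.3.3, and called where the p-value, adjusted by Benjamini-Hochberg over all tested genes, was under 0.05. The SE was derived from the fold change and its F statistic. CPM was scaled by TMM over all 46 libraries, and log2 CPM used a prior count of 2. Relative length is the median over libraries of counts divided by TPM, where the count was at least 20 and TPM at least 0.2. The length trend was removed by an offset per library from a lowess curve (span 0.3). The scripts were tested on simulated data. Pairs of libraries within a group were checked for double deposits (33 pairs, lowest chi-square per degree of freedom 13). Of 33331 gene rows 31181 were matched to 1 chromosome.

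The comparison and the 30 lists (404 genes, 398 found) were chosen with earlier results of these data known. They hold markers of Sertoli, pregranulosa, steroidogenic, stromal, endothelial, macrophage, erythroid, germ, epithelial, mesonephric, adrenal, neural and muscle cells and the gene groups given above; 1 list is not reported here. By rule the named genes are Sox9, BC006965, up to 4 called and 2 uncalled genes per list, and the 12 highest and 12 lowest called genes outside the lists with no overlap, a mean log2 CPM of at least 1 and a name of their own; part of them is given. Other genes, such as Hspg2, Agrn, Col4a2, Wnt4, Ddx4, Sdk2, Rpl38, Cdc42ep4, Chtf8, Zc3h11a and Dnd1, were chosen after their values were seen. Alternatives were RLE, no filter, DESeq2 1.42.0, 1 fit over 12 groups, replicate blocks, a non-robust fit, autosomal genes, a 2-fold minimum and each library left out.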

Additional observations from a re-analysis of the deposited data

Results flagged for a closer look

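In 186 groups of 5 libraries (genes chosen for description and 4 measures of the library, in each XX genotype), the highest or lowest library was compared with the rest by Dixon's criterion, which marks about 1 in 20 groups by chance; 11 stood apart. In the 3bp-12bp-del group, replicate 3 had the lowest Gli1 (3.46 CPM, the others 12 to 19.8 CPM), the highest Cdh16 (4.07 CPM, the others 0.0295 to 0.121 CPM) and the highest Cntnap5a (55.4 CPM, the others 22.1 to 27.4 CPM). In replicate 5 of that group Rpl7a-ps11 was lowest (25.8 CPM, the others 84.3 to 118 CPM).

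In the 3bp-del group, replicate 4 had the highest Sostdc1 (7.25 CPM, the others 0.329 to 0.464 CPM) and the lowest Inhbb (143 CPM, the others 214 to 240 CPM) and Lama4 (68.2 CPM, the others 81.1 to 86.3 CPM). Replicate 3 had the lowest Msx2 (4.63 CPM, the others 6.3 to 6.85 CPM). Replicate 2 had the lowest Irx5 (1.33 CPM, the others 2.1 to 2.48 CPM), the highest Cyp11a1 (8.77 CPM, the others 4.07 to 4.85 CPM) and the highest Sphkap (8.91 CPM, the others 6.22 to 6.88 CPM).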

How the results depend on the processing

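Of the 4360 genes called in XX gonads, the count was 2848 with replicate numbers as a block, 2481 without the length trend, 1142 with the block and without the trend, and 96 with a 2-fold minimum. Chosen after seeing the data, removal of the length trend without 3bp-del replicate 4 gave 2448. Leaving out each library in turn gave 3218 (without 3bp-del replicate 5) to 4810 (without 3bp-del replicate 4). RLE, no filter, DESeq2, 1 fit over 12 groups, a non-robust fit and autosomal genes gave 3861 to 4943.

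The replicate numbers did not pair the libraries: same-numbered deviations correlated at -0.239 to 0.034, and no library correlated best with its own number. With the block 60 of the 77 called genes chosen for description kept their call, and 50 without the length trend, 52 in the fit over 12 groups and 63 to 72 with a library left out.

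The XY count of 654 was unstable: 2031 by DESeq2, 1534 in the fit over 12 groups, 1 with the block, 181 without the length trend and 0 with both. It was 1 without 3bp-12bp-del replicate 2 and 1789 without 3bp-del replicate 1. The interaction count was 0 under every alternative run.

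Sox9 stayed positive, at 0.16 to 0.36 with a library left out. It passed the threshold without 3bp-12bp-del replicate 1 (0.36), and under no other alternative run. The length correlation was 0.655 for genes with a mean log2 CPM of at least 3, and 0.453 to 0.543 with a library left out. The 110 called list members (37 higher, 73 lower) became 73 in the fit over 12 groups, 53 without the length trend, 27 with the block as well, 48 without the trend and replicate 4, and 87 to 126 with a library left out.

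Direction turned for BC006965 (-0.03 without 3bp-12bp-del replicate 4 and 0.00 without 3bp-del replicate 4; up to 0.45 with another library left out), for Sostdc1 (0.39 without 3bp-del replicate 4, down to -2.32 with another left out, 0.49 without the length trend as well) and for Cenpf (-0.01 without the length trend, 0.00 with the block as well, -0.04 without replicate 4 as well); the cause was not tested. The median of all genes moved by under 0.1 with the scaling. Among the named genes whose call was lost without 1 library were Zglp1 (3bp-12bp-del replicate 2 or 3bp-del replicate 5, adjusted p up to 0.0529), Twist2 (3bp-12bp-del replicate 1, 2 or 4, up to 0.0573), Dcn (5 libraries, up to 0.0798), Krt8, Upk1b, Cldn5 and Top2a (6 each, up to 0.117), Ccne1 (7) and Nanos3 (8). The part of depth in the lost calls was not tested.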
